A study of Rattus norvegicus with 25 samples.

Results

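The transcripts described here are 10 genes that are used to mark neurons outside the striatum or the choroid plexus: Slc17a7, Slc17a6, Slc30a3, Neurod6, Tcf7l2, Cbln1, Glra1, Tmem132c, Cyp26b1 and Ttr. They were taken by symbol from a table of 28909 gene names as a readout of what a striatal dissection held, and all 10 were in the table. Several of them were chosen because their level varied between libraries of this study, so that variation is given below as a description and not as a finding. Of the 10, 9 passed the low-count filter that left 14142 genes for testing, and Neurod6 did not. Slc17a6, Glra1 and Ttr passed only with the few libraries in which they were high, so no count over the members that passed is read as support.

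RNA came from the striatum on the side of a 6-hydroxydopamine lesion, in which a neurotoxin kills dopamine neurons to model Parkinson's disease, in 25 female Sprague Dawley rats with 1 library each. All animals carried the lesion and received levodopa, the dopamine precursor, at 6 mg/kg QD, and the title of the series names it together with benserazide. The arms were levodopa alone (n = 5), the same with 7.5 mg/kg trapidil BID (n = 10) and the same with 15 mg/kg trapidil BID (n = 10), dosed for 14 days with tissue taken on day 15. Trapidil is a vasodilator that counters platelet-derived growth factor and inhibits phosphodiesterase. No arm without a lesion or without levodopa was analysed here, and all comparisons are among lesioned, levodopa-treated animals.

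The striatum holds almost no glutamatergic cell bodies, since its projection neurons use GABA, while glutamate reaches it on axons from cortex and thalamus. The mRNA of the vesicular glutamate transporters lies mainly in the cell bodies of those projection neurons, so Slc17a7 mRNA is a standard marker of cortical tissue and Slc17a6 mRNA of thalamic, hypothalamic and other subcortical tissue. The choroid plexus lies in the lateral ventricle beside the striatum, and its epithelium is known for very high Ttr. In bulk tissue, fewer cells of a type and less RNA per cell cannot be told apart, and that holds for every level below.

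Promoter windows are shown for the cortical pair Slc17a7 and Neurod6, which peaked in the same libraries, and for Slc17a6 and Cyp26b1, which peaked in another. Sequences are from RefSeq on GRCr8, 5′ to 3′ on the strand of the gene, from 250 bases before to 50 bases after the annotated start, and 8 of the 10 members had an entry. The windows lie at chr1:104785955-104786254 (plus strand) for Slc17a7, chr4:86180106-86180405 (minus) for Neurod6, chr1:110348197-110348496 (plus) for Slc17a6 and chr4:118616127-118616426 (minus) for Cyp26b1. Capitals mark CANNTG, the E-box motif read by basic helix-loop-helix factors, the class of protein that Neurod6 encodes.
Slc17a7: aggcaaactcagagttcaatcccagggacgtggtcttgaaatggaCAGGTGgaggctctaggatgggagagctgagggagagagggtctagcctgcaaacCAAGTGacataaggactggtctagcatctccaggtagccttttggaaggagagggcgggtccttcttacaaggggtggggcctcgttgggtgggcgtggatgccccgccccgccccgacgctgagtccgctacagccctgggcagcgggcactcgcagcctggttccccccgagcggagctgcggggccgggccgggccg
Neurod6: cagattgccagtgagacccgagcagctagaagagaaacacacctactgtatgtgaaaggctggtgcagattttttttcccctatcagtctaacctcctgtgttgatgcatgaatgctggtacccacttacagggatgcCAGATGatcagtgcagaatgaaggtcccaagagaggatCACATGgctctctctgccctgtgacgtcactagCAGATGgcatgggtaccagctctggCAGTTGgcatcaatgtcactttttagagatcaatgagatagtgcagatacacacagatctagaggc
Slc17a6: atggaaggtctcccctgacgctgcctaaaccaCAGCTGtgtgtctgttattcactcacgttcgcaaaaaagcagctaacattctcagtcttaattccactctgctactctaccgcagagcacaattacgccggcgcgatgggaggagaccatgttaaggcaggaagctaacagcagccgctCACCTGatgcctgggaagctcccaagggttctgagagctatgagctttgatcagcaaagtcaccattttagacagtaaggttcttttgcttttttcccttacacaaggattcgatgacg
Cyp26b1: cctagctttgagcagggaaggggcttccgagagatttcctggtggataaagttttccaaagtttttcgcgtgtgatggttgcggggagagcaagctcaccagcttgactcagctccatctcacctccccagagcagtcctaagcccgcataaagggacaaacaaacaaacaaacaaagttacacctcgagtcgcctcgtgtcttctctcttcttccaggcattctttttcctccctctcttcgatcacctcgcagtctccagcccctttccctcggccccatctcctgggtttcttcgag
The motif CANNTG occurred 4 times in the Neurod6 window, 2 times in each of the Slc17a7 and Slc17a6 windows and 0 times in that of Cyp26b1, searched on both strands (the motif is its own reverse complement). Of 33469 promoter windows of this length, 72.1% held it, so its presence sets none of these genes apart. The E-box form CAGATG, which reads CATCTG on the other strand, occurred 2 times in the Neurod6 window, where it overlaps CANNTG by construction, 0 times in the other windows shown, and in 16.6% of all windows. CTTTGA, the core recognised by Tcf7l2 and its relatives and searched on both strands, occurred 1 time each in the Slc17a6 and Cyp26b1 windows and in 16.1% of all windows.

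Total counts per library ran from 10838513 to 20532290 (median 17224241), and at these depths the upper limit that a count of 0 allows, 3 counts, corresponded to 0.147 to 0.275 CPM (reads of a gene per library total, multiplied up to a common depth and corrected by TMM factors). Such limits cover counting error only. The tissue label was borne out by striatal projection neuron genes: Ppp1r1b, the dopamine-regulated phosphatase inhibitor DARPP-32, was at 3365 CPM or more in every library and Drd1, the D1 dopamine receptor, at 108.7 CPM or more. The labels describe randomised animals without tying each library to an animal, and p-values measure the spread between these libraries, which may be technical.

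Before the members are taken in turn, 4 libraries need naming, because most of what the markers showed lay in them. They were replicates 2 and 5 of the levodopa arm and replicates 1 and 6 of the 7.5 mg/kg arm. They were singled out after the members' values were seen. Together they held 15.1% of all counts of the study, but 83.1% of the counts of Ttr, 73.5% of Slc17a6, 62.6% of Cbln1, 62.1% of Slc17a7 and 55.6% of Glra1. For Cyp26b1, Neurod6, Tmem132c and Slc30a3 the share was 46.6%, 45.8%, 42.3% and 33.0%, and for Tcf7l2 it was 19.1%. No library of the 15 mg/kg arm was among them. Some markers rose together in these libraries and others did not. Cbln1 and Glra1 were above each of the other 21 libraries in all 4, and Cyp26b1 in all but levodopa replicate 5. Slc17a7 was also above those 21 in all 4, but by little in levodopa replicate 2 (5.55 CPM, against at most 4.68 CPM). Replicate 2 of the levodopa arm was highest in Slc17a6, Tcf7l2 and Ttr, while levodopa replicate 5 and both 7.5 mg/kg libraries were high in Slc17a7 and Neurod6.

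**Figure D1:**
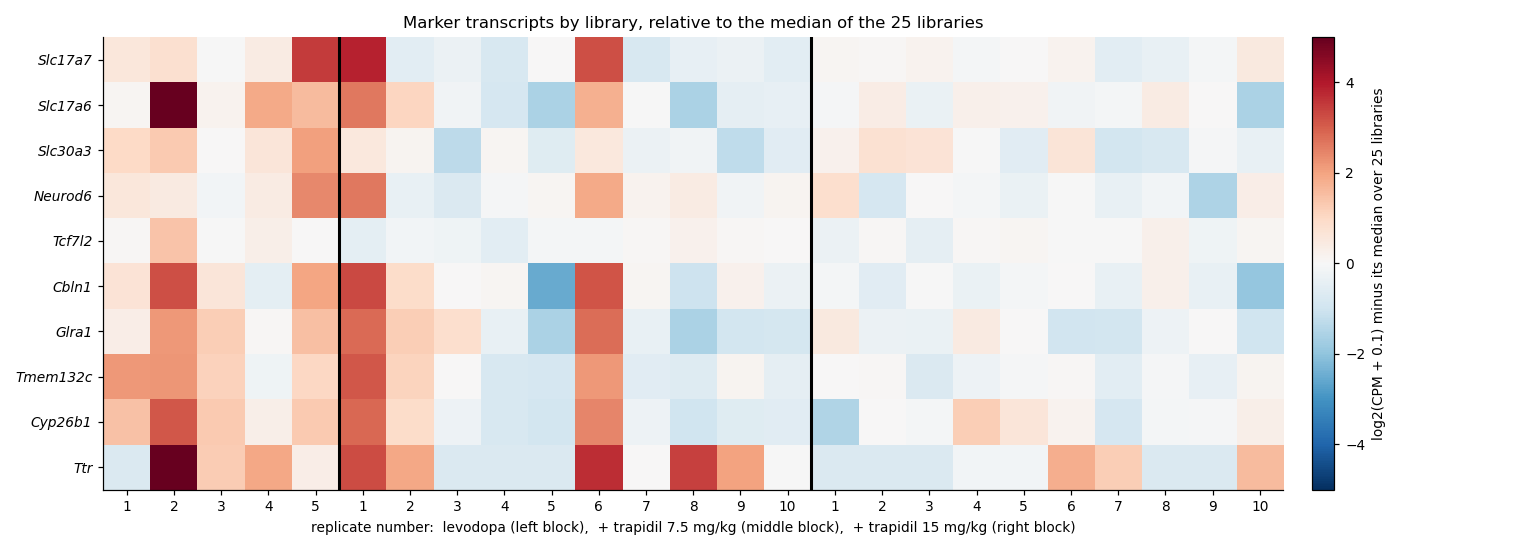
Level of the 10 transcripts (rows) in the 25 libraries (columns, by replicate number within each arm, with trapidil dose increasing from left to right), as log2(CPM + 0.1) minus the median of the 25 libraries. Red cells concentrate in the 4 libraries named above. Within their rows, Slc17a6, Cyp26b1, Tcf7l2 and Ttr are highest in levodopa replicate 2, and Slc17a7 is highest in 7.5 mg/kg replicate 1.

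Slc17a7 encodes the vesicular glutamate transporter VGLUT1 of cortical and hippocampal neurons. Its levels were 4.68, 5.55, 3.10, 4.22 and 36.3 CPM in levodopa replicates 1 to 5. In the 7.5 mg/kg arm the lowest, median and highest libraries had 1.73, 2.44 and 46.1 CPM, and replicate 6 was second with 29.6 CPM. In the 15 mg/kg arm the lowest, median and highest were 2.16, 3.18 and 4.36 CPM. These 3 high libraries stood far above the rest, since outside the 4 libraries named above no value exceeded 4.68 CPM, and the 3 arms overlapped. Counting support was good, with 684, 503 and 512 reads in the 3 high libraries and at least 27 in every other.

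Neurod6, the gene of a basic helix-loop-helix transcription factor of cortical excitatory neurons, followed the same libraries at lower counts. It had 0.551, 0.493, 0.298, 0.475 and 2.18 CPM in levodopa replicates 1 to 5. Values of 0.160, 0.367 and 2.57 CPM were the lowest, median and highest at 7.5 mg/kg, with 1.50 CPM in replicate 6, and 0.0493, 0.301 and 0.687 CPM those at 15 mg/kg. The same 3 libraries were again above all others, with 41, 28 and 26 reads against at most 11 elsewhere. Levodopa replicate 2, so high in other markers, was not high in Neurod6 (8 reads).

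Slc30a3 encodes ZnT3, which loads zinc into synaptic vesicles of cortical glutamatergic neurons. Levodopa replicates 1 to 5 had 0.936, 1.17, 0.417, 0.686 and 2.02 CPM. At 7.5 mg/kg the lowest, median and highest were 0.106, 0.344 and 0.642 CPM, and at 15 mg/kg they were 0.175, 0.402 and 0.787 CPM. Its peak was in levodopa replicate 5, as for Slc17a7, but replicates 1 and 6 at 7.5 mg/kg (0.642 and 0.636 CPM) lay within the range of the 15 mg/kg libraries. Of the 5 levodopa libraries, 3 lay above every 15 mg/kg library and 4 above every 7.5 mg/kg library.

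Slc17a6 encodes VGLUT2, the vesicular glutamate transporter of thalamus, hypothalamus and brainstem. Levodopa replicate 2 had 11.0 CPM, against 0.220, 0.239, 1.00 and 0.796 CPM in replicates 1, 3, 4 and 5. At 7.5 mg/kg the lowest, median and highest libraries had 0, 0.142 and 1.74 CPM, the highest being replicate 1, and at 15 mg/kg they had 0, 0.192 and 0.295 CPM. One library held 178 of the 310 reads of this gene in the study. Without it the levodopa libraries still reached above the 15 mg/kg range in replicates 4 and 5, with 19 and 15 reads.

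Tcf7l2, a transcription factor of the Wnt pathway that is strongly expressed in the adult thalamus, was present throughout, as Slc17a7 was, with 58 reads or more in every library. Levodopa replicates 1 to 5 had 7.66, 19.9, 7.28, 9.07 and 7.43 CPM. Libraries at 7.5 mg/kg ran from 5.08 to 8.73 CPM (median 6.95) and those at 15 mg/kg from 5.35 to 8.91 CPM (median 7.57). Apart from levodopa replicate 2, with 323 reads, every library lay between 5.08 and 9.07 CPM and the arms overlapped. The 7.5 mg/kg replicate 1, highest or second highest for 7 of the other members, was the second lowest library for Tcf7l2 (5.32 CPM).

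**Figure D2:**
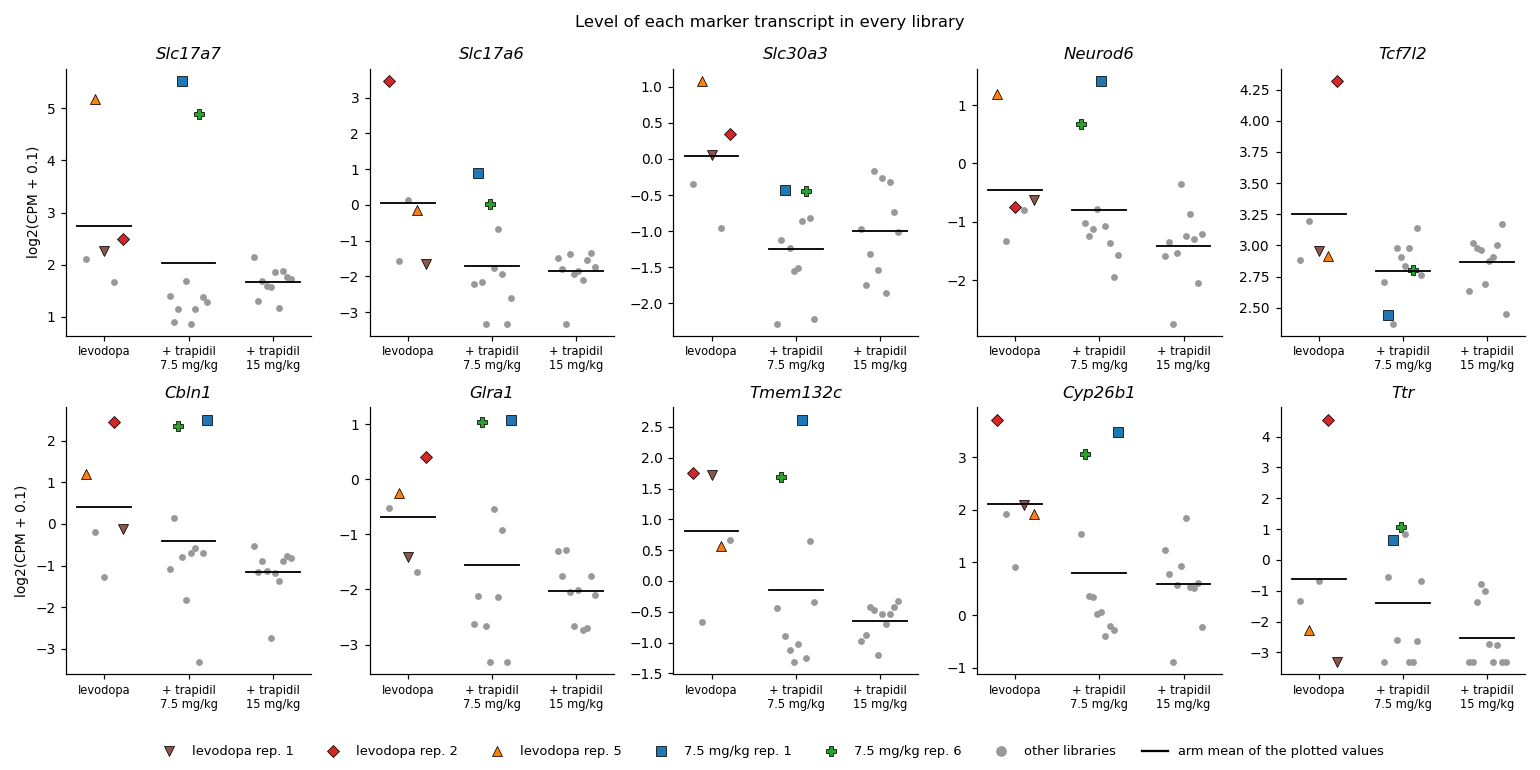
Level of each transcript in every library, as log2(CPM + 0.1), by arm; symbols mark 5 libraries that are named in the text and black lines the mean of the plotted values. Levodopa replicate 2 (red diamond) stands alone for Slc17a6 (11.0 CPM), Tcf7l2 (19.9 CPM) and Ttr (23.4 CPM), and the 15 mg/kg libraries have no such point for these genes.

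Cbln1 encodes cerebellin 1, a secreted synapse organiser that links neurexins to delta glutamate receptors and is made by cerebellar granule cells and by thalamic neurons. Levodopa replicates 1 to 5 had 0.826, 5.36, 0.775, 0.317 and 2.18 CPM. Libraries at 7.5 mg/kg had a lowest, median and highest value of 0, 0.518 and 5.59 CPM, with 4.97 CPM in replicate 6, and 0.0501, 0.398 and 0.591 CPM at 15 mg/kg. All 4 libraries named above exceeded each of the other 21, whose highest value was 0.997 CPM.

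Glra1, the glycine receptor alpha 1 subunit known from spinal cord and brainstem, was highest in the same 4 libraries as Cbln1. It had 0.275, 1.23, 0.596, 0.211 and 0.743 CPM in levodopa replicates 1 to 5. The 7.5 mg/kg arm had 0, 0.130 and 2.02 CPM as lowest, median and highest, with 1.96 CPM in replicate 6, and the 15 mg/kg arm 0.0501, 0.145 and 0.312 CPM. These are small counts, 34 reads at most in a library and 162 in all, and most libraries outside the 4 lay at or near the limit that 0 counts allow.

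Tmem132c, a single-pass membrane protein of a family found in neurons, was high in levodopa replicate 1 as well as in replicate 2. Its levels were 3.19, 3.27, 1.49, 0.528 and 1.38 CPM in levodopa replicates 1 to 5. Trapidil at 7.5 mg/kg came with 0.300, 0.537 and 6.05 CPM as lowest, median and highest, and 15 mg/kg with 0.334, 0.589 and 0.701 CPM. Of the levodopa libraries 4 lay above every 15 mg/kg library, and replicate 4 lay inside that range. Levodopa replicate 1, which had 0 reads of Ttr and 4 of Slc17a6, had 58 reads of Tmem132c, more than replicate 2 (53 reads).

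Cyp26b1, the enzyme that clears retinoic acid, had 4.13, 13.0, 3.70, 1.79 and 3.66 CPM in levodopa replicates 1 to 5. The lowest, median and highest were 0.662, 1.05 and 11.0 CPM at 7.5 mg/kg, with 8.20 CPM in replicate 6, and 0.437, 1.41 and 3.49 CPM at 15 mg/kg. As with Tmem132c, 4 of 5 levodopa libraries lay above every 15 mg/kg library, and the arms overlapped through replicate 4. For both genes the levodopa libraries above that range included replicates 1 and 3, which are not among the 4 named above.

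Ttr encodes transthyretin, the carrier of thyroxine and of retinol-binding protein. Levodopa replicate 2 had 23.4 CPM, against 0, 0.298, 0.528 and 0.106 CPM in replicates 1, 3, 4 and 5. The lowest, median and highest were 0, 0.297 and 2.02 CPM at 7.5 mg/kg, where replicates 8 and 1 followed with 1.69 and 1.47 CPM, and 0, 0.0245 and 0.487 CPM at 15 mg/kg. One library held 379 of the 520 reads, and 5 of the 10 libraries at 15 mg/kg had 0 reads.

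The choroid label of Ttr was not tested, and several choroid genes had few reads, so Ttr is named as a gene only. Otx2, a transcription factor that defines the choroid epithelium, had 0 reads in all 25 libraries. In levodopa replicate 2 the epithelial channel gene Kcnj13 was at 0.0617 CPM, the prolactin receptor Prlr at 0.123, the coagulation factor F5 at 0.308 and Sostdc1 at 0.370 CPM, a few reads each. Of the 20 genes of the choroid list, 3 had their highest level of the 25 libraries there, namely Ttr, F5 and the collagen gene Col8a1 (1.85 CPM, against at most 1.10 CPM elsewhere), and Prlr and Sostdc1 had their second highest. Among the 10 tested choroid genes that are not members, 1 peaked there (10.0%), against 19.7% of all tested genes. Most genes of the list lay above their median of the 25 libraries in levodopa replicate 2. Examples were Kcne2 (1.42 CPM, median 0.936) and Wfdc2 (3.45 CPM, median 2.64). Those below their median were Kl (0.493 CPM, median 0.666), Folr1 (1.11 CPM, median 1.5), Slc4a5 (0.123 CPM, median 0.25) and Steap1 (0.0617 CPM, median 0.117). Clic6, which choroid epithelium also makes, was at 2.96 CPM in levodopa replicate 2, against 0.0551, 0, 3.11 and 0 CPM in levodopa replicates 1, 3, 4 and 5. It was at 0 to 6.37 CPM in the 7.5 mg/kg arm and 1.14 to 5.08 CPM in the 15 mg/kg arm. Folr1 was at 1.11 CPM in levodopa replicate 2, at 0 to 2.75 CPM with 7.5 mg/kg and at 1.13 to 3.19 CPM with 15 mg/kg. Both genes were at 0 CPM in 7.5 mg/kg replicate 6, the library with the second highest Ttr. The summed ependymal level described below was also lowest in that library (20.16 CPM). It was highest in 7.5 mg/kg replicate 9 (118.6 CPM), where Clic6 was at 6.37 CPM and Folr1 at 2.75 CPM. The part of ependymal cells in Clic6 and Folr1 was not tested. These genes were picked from the list after their values were seen, and the part of choroid plexus in the Ttr level was not tested.

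The choroid list, Ttr included, summed to 71.52 to 139.0 CPM in the levodopa arm (median 103.4), 65.54 to 121.3 CPM at 7.5 mg/kg (median 80.54) and 66.01 to 102.7 CPM at 15 mg/kg (median 75.62). Most of that sum was Enpp2, which oligodendrocytes also express, whose mean ± SD was 85.5 ± 15.8 CPM in the levodopa arm (n = 5), 70.0 ± 16.9 CPM in the 7.5 mg/kg arm (n = 10) and 60.0 ± 12.1 CPM in the 15 mg/kg arm (n = 10).

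Across all libraries the spread of the members was near the top of the genes tested. The SD of log2(CPM + 2) lay at the 99.1th percentile or above for Slc17a6, Cbln1, Cyp26b1, Ttr and Slc17a7, at the 98.7th for Tmem132c and at the 74.0th for Slc30a3, with Neurod6, Glra1 and Tcf7l2 between 91.2 and 93.5. Since varying between libraries was a reason for the choice, these percentiles describe the members and no more.

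How the members varied among themselves was summarised by Pearson correlations of log2(CPM + 2) over the 25 libraries, given as descriptions because all pairs share libraries and depth. Of 45 pairs, 17 had r above 0.7, and the median r was 0.606. Slc17a7 and Neurod6 had r = 0.948 (Spearman rho 0.587), Cbln1 and Glra1 r = 0.947 (rho 0.688), Slc17a6 and Ttr r = 0.924 (rho 0.299), and Cyp26b1 and Tmem132c r = 0.903 (rho 0.768). In contrast, Slc17a7 had r = 0.362 with Slc17a6 and -0.08 with Tcf7l2.

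Leaving out the 2 libraries farthest from the median of the first gene of each pair gave r = 0.835 for Slc17a7 and Neurod6, 0.930 for Cbln1 and Glra1, 0.842 for Cyp26b1 and Tmem132c and 0.320 for Slc17a6 and Ttr. The Slc17a6 and Ttr relation therefore rested on those 2 libraries, levodopa replicate 2 and replicate 1 at 7.5 mg/kg. Without the 4 libraries the median r of the 45 pairs was 0.207 and 1 pair stayed above 0.7, Cyp26b1 and Tmem132c at 0.732. Cbln1 and Glra1 were then at 0.679 and Slc17a7 and Neurod6 at 0.329. Those libraries were singled out on the members' own values, so leaving them out narrows most ranges, which by itself tends to lower r.

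**Figure D3:**
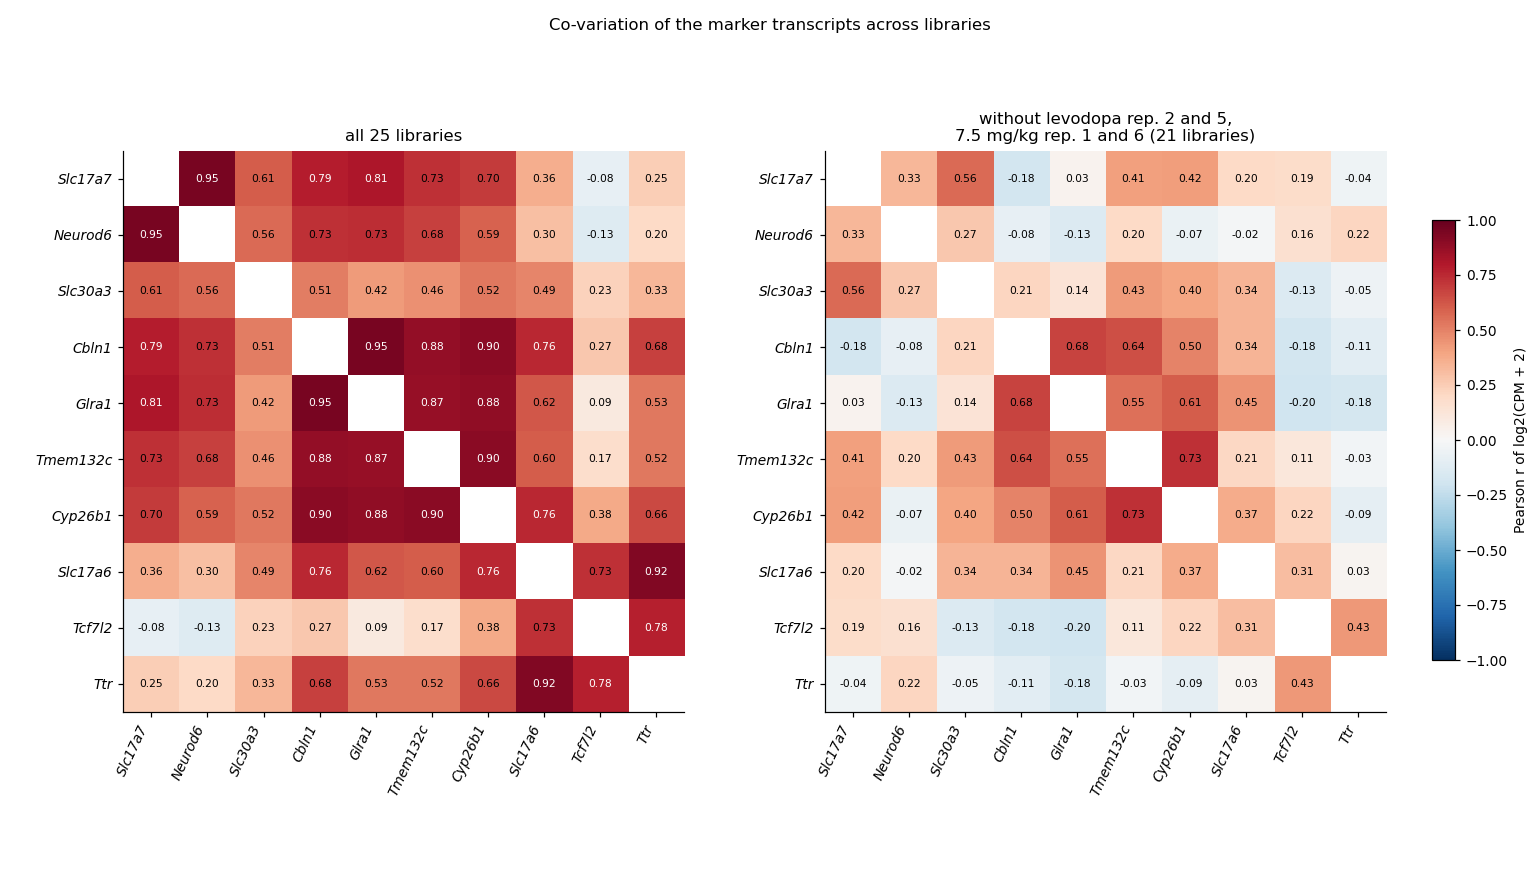
Pearson r of log2(CPM + 2) between the 10 transcripts over all 25 libraries (left) and over the 21 left without the 4 libraries named above (right). The left panel holds 17 of 45 pairs above 0.7 and the right panel 1, Cyp26b1 with Tmem132c at 0.732.

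The genes whose pattern over the 25 libraries was most like that of a member were taken from 13075 tested genes with a mean of at least 1 CPM, by r. Hapln4, a component of perineuronal nets, had r = 0.934 with Glra1 and Kcnc2, a Kv3 potassium channel of fast-spiking neurons, r = 0.936 with Cbln1. Both peaked in the 7.5 mg/kg replicate 1, at 73.0 CPM for Hapln4 (median of all libraries 20.1) and 26.0 CPM for Kcnc2 (median 7.15). Npas1, a transcription factor of pallidal neurons, was closest to Tmem132c (r = 0.942) and close to Cyp26b1 (r = 0.916), and reached 24.9 CPM in the same library against a median of 3.33 CPM. Slc6a11, the GABA transporter GAT3, had r = 0.924 with Cbln1. Without the 4 libraries r was 0.801 for Hapln4, 0.785 and 0.826 for Npas1 with Tmem132c and Cyp26b1, 0.566 for Kcnc2 and 0.273 for Slc6a11.

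For Slc17a7 the nearest gene outside the members was Ache, acetylcholinesterase (r = 0.868), followed by Nxph3 (0.835) and Nov (0.809), and Ache was also second for Neurod6. Without the 4 libraries r with Slc17a7 was 0.315 for Ache, 0.165 for Nxph3 and 0.229 for Nov. The range of Slc17a7 was then narrow, from 1.73 to 4.68 CPM. Tcf7l2 ran with Sdc4, a heparan sulphate proteoglycan (r = 0.944, rho 0.892), Myo6 and Rrbp1. The values for these without the 4 libraries were 0.843 for Sdc4, 0.746 for Myo6 and 0.638 for Rrbp1. Slc17a6 was closest to Ttr and then to the endothelial gene Eng (0.897) and to Stom (0.896), and Ttr to Snx5, Ctdsp1 and Ramp2, all with their highest level in levodopa replicate 2. Over the other 21 libraries r was 0.225 for Eng, 0.438 for Stom, 0.452 for Snx5, 0.347 for Ctdsp1 and 0.183 for Ramp2. Slc30a3 had no gene above 0.703, the value for Adamts2 (0.545 without the 4 libraries).

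The first comparison between arms was trapidil at 15 mg/kg over levodopa alone. All 9 members tested had negative log2 fold changes, and 2 passed, Slc17a6 and Ttr, where 1.31% of the 14142 genes tested did so in either direction and 1.00% in the lower direction. Slc17a6 averaged 0.194 ± 0.0869 CPM at 15 mg/kg (SD, n = 10) and 2.65 ± 4.67 CPM with levodopa (SD, n = 5), which in log2 was -3.71 ± 0.77 (SE; edgeR adjusted p = 0.0217). Ttr averaged 0.128 ± 0.190 CPM at 15 mg/kg (SD, n = 10) and 4.86 ± 10.3 CPM with levodopa (SD, n = 5), in log2 -5.11 ± 1.09 (edgeR adjusted p = 0.0217). For both genes the levodopa mean was set by replicate 2: all 10 libraries at 15 mg/kg lay below it, but so did the other 4 of the 5 levodopa libraries.

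Each call ended when levodopa replicate 2 was left out, at -1.53 ± 0.70 for Slc17a6 (edgeR adjusted p = 0.361) and -0.79 ± 1.18 for Ttr (adjusted p = 0.846). Calls fell in general in that fit, to 20 of 14201 genes from 185 of 14142. A call lost there is therefore not by itself a sign that a gene depends on that library. Limma-voom with quality weights on all libraries gave -1.36 for Slc17a6 (adjusted p = 0.165) and -1.68 for Ttr (adjusted p = 0.39). The ranges overlapped for both genes. For Slc17a6, 6 of 10 libraries at 15 mg/kg lay below the lowest levodopa library, and for Ttr 0 did, because levodopa replicate 1 had 0 reads.

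The remaining 7 tested members did not pass at 15 mg/kg over levodopa, and several came near. Slc30a3 was at 0.445 ± 0.228 CPM at 15 mg/kg and 1.05 ± 0.612 CPM with levodopa (log2 fold change -1.26 ± 0.37; edgeR adjusted p = 0.0691). Tmem132c averaged 0.550 ± 0.120 CPM at 15 mg/kg and 1.97 ± 1.21 CPM with levodopa (-1.82 ± 0.55; adjusted p = 0.0771), and Cbln1 0.381 ± 0.146 and 1.89 ± 2.06 CPM (-2.28 ± 0.73; adjusted p = 0.0867). Cyp26b1 had a log2 fold change of -1.70 ± 0.57 (adjusted p = 0.0977), Tcf7l2 of -0.49 ± 0.18 (0.128), Slc17a7 of -1.78 ± 0.70 (0.16) and Glra1 of -1.87 ± 0.76 (0.174). Neurod6, fitted without the low-count filter, had -1.38 ± 0.55 (edgeR adjusted p = 0.203).

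Without the 4 libraries, which were singled out on the members' own values, 3 levodopa libraries were left, and 1 member passed, Tmem132c. Its log2 fold change was then -1.64 ± 0.38 (edgeR adjusted p = 0.0369; levodopa replicates 1, 3 and 4 at 3.19, 1.49 and 0.528 CPM), where 1.14% of the 14248 genes then tested passed and 0.723% passed lower. With all other libraries kept, leaving out levodopa replicate 1, the highest of those 3, gave -1.57 ± 0.60 (edgeR adjusted p = 0.16), and leaving out levodopa replicate 2 gave -1.56 ± 0.60 (adjusted p = 0.274). Omission of the 4 left -0.99 ± 0.38 for Cyp26b1 (adjusted p = 0.199), -0.72 ± 0.50 for Cbln1 (0.519), -0.65 ± 0.41 for Slc30a3 (0.474), -0.35 ± 0.18 for Slc17a7 (0.373) and -0.13 ± 0.14 for Tcf7l2 (0.702). Slc17a6, Glra1 and Ttr then fell below the low-count filter.

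No member had ranges that were separate between arms in any of the 3 comparisons, while 0.707% of tested genes did at 15 mg/kg over levodopa, 0.0919% at 7.5 mg/kg over levodopa and 0% at 15 over 7.5 mg/kg. At 15 mg/kg over levodopa the nearest were Cbln1, Cyp26b1 and Tmem132c, each with 4 of 5 levodopa libraries above the highest 15 mg/kg library. At 7.5 mg/kg over levodopa Slc30a3 had 4 of 5 levodopa libraries above the highest 7.5 mg/kg library.

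**Figure D4:**
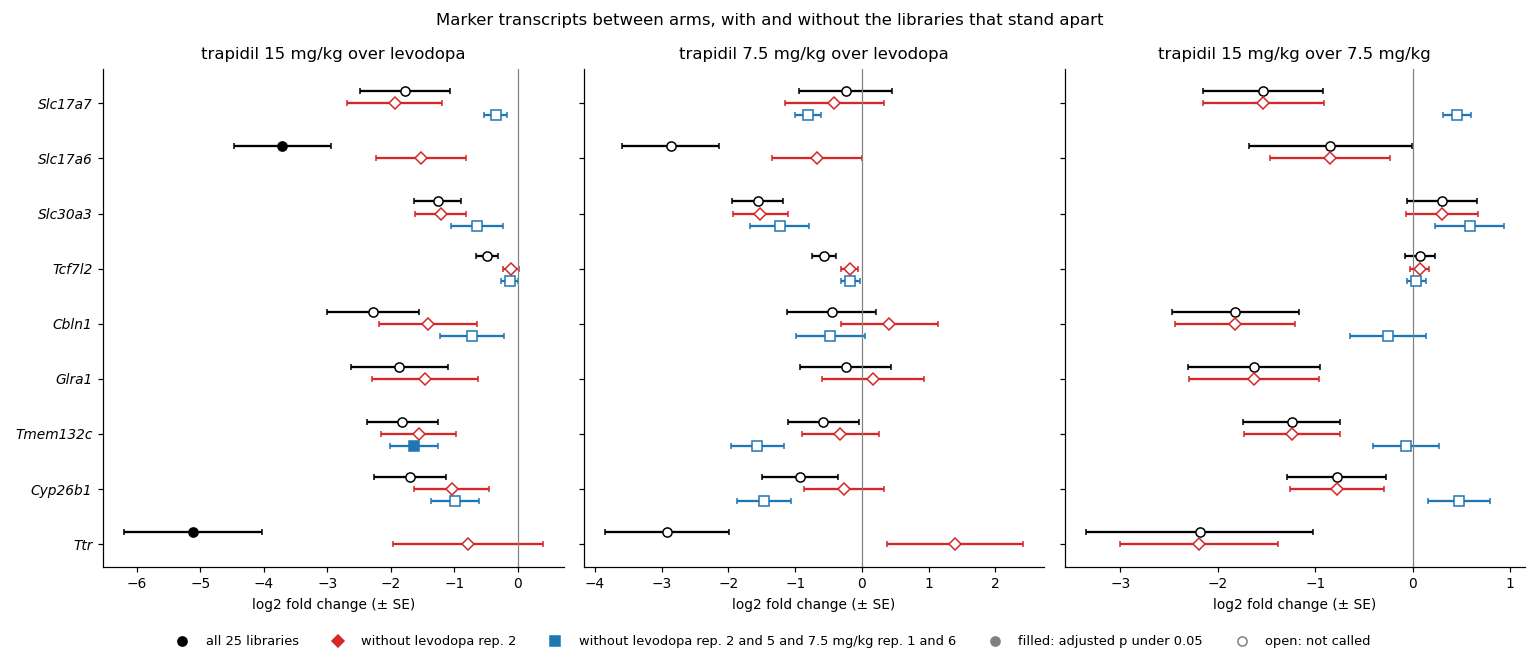
Log2 fold change (± SE, edgeR) of the 9 tested members in each comparison, over all 25 libraries (black), without levodopa replicate 2 (red) and without the 4 libraries (blue); filled symbols passed an adjusted p of 0.05 and a missing symbol failed the low-count filter. Slc17a6 and Ttr move from -3.71 and -5.11 to -1.53 and -0.79 without levodopa replicate 2, and Tmem132c is the 1 filled blue symbol.

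The second comparison, trapidil at 7.5 mg/kg over levodopa alone, called 4 genes (0.0283%) and no member. Slc17a6 averaged 0.385 ± 0.556 CPM at 7.5 mg/kg (SD, n = 10) and 2.65 ± 4.67 CPM with levodopa (log2 fold change -2.86 ± 0.73; edgeR adjusted p = 0.141). Slc30a3 was at 0.359 ± 0.191 CPM at 7.5 mg/kg and 1.05 ± 0.612 CPM with levodopa (-1.56 ± 0.38; adjusted p = 0.135), and Ttr at 0.640 ± 0.789 and 4.86 ± 10.3 CPM (-2.93 ± 0.93; adjusted p = 0.251). Slc17a7, at 9.40 ± 15.5 CPM at 7.5 mg/kg and 10.8 ± 14.3 CPM with levodopa, had -0.25 ± 0.69 (adjusted p = 0.91), since both arms held libraries high in it. Cbln1 (-0.46), Glra1 (-0.24), Tmem132c (-0.58), Cyp26b1 (-0.93) and Tcf7l2 (-0.56) also did not pass. Under the alternatives run, 2 members were called here, Slc30a3 without 7.5 mg/kg replicate 1 (-1.67; edgeR adjusted p = 0.047) and Cyp26b1 with limma-voom (-1.63; adjusted p = 0.0328).

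Several of these directions hung on 1 library. Leaving out levodopa replicate 2 turned Ttr to 1.40 ± 1.02, Cbln1 to 0.41 ± 0.73 and Glra1 to 0.17 ± 0.76, and leaving out levodopa replicate 5 turned Slc17a7 to 1.06 ± 0.74, none of them called. Without the 4 libraries Slc17a7 was at -0.81 ± 0.19 (edgeR adjusted p = 0.0526) and Tmem132c at -1.57 ± 0.40 (adjusted p = 0.0791), where 0.533% of genes passed.

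Trapidil at 15 mg/kg over 7.5 mg/kg also called 4 genes (0.0283%) and no member, each member having an edgeR adjusted p of 0.999. Cbln1 averaged 0.381 ± 0.146 CPM with the higher dose and 1.42 ± 2.06 CPM with the lower (SD, n = 10 each; log2 fold change -1.82 ± 0.65), Slc17a7 3.14 ± 0.629 and 9.40 ± 15.5 CPM (-1.54 ± 0.62), and Glra1 0.160 ± 0.0957 and 0.537 ± 0.789 CPM (-1.63 ± 0.68). Without the 4 libraries, when 0.0632% of genes passed, Slc17a7 stood at 0.46 ± 0.14 and Cyp26b1 at 0.48 ± 0.32, the opposite sign, with neither called. The comparisons with levodopa share the same 5 libraries, and those with 7.5 mg/kg the same 10, so their values are not independent of each other.

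The striatal genes moved against the markers in 1 library. The 18 genes of the striatal projection neuron list summed to 14420 CPM in levodopa replicate 2, while the arms had medians of 22480 (levodopa), 22210 (7.5 mg/kg) and 21755 CPM (15 mg/kg) and no other library was below 19700 CPM. That library was the lowest of the 25 for 15 of the 18 genes (83.3%), where it was the lowest for 19.3% of all tested genes. Drd1 was at 108.7 CPM there, against at least 174.2 CPM in any other library. The library also had the highest share of mitochondrially encoded counts, 17.3% against a median of 12.0% over all libraries. The part of either in the Slc17a6, Tcf7l2 and Ttr values was not tested. The other 3 libraries that stood apart had striatal sums within the range of the rest.

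No striatal projection neuron gene passed at 15 mg/kg over levodopa (0 of 18; median log2 fold change 0.09 with 16 positive, and -0.03 with 6 positive without levodopa replicate 2). Penk averaged 4430 ± 762 CPM at 15 mg/kg and 4400 ± 1250 CPM with levodopa, and Ppp1r1b 4780 ± 336 and 4460 ± 849 CPM (SD, n = 10 and n = 5).

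**Figure D5:**
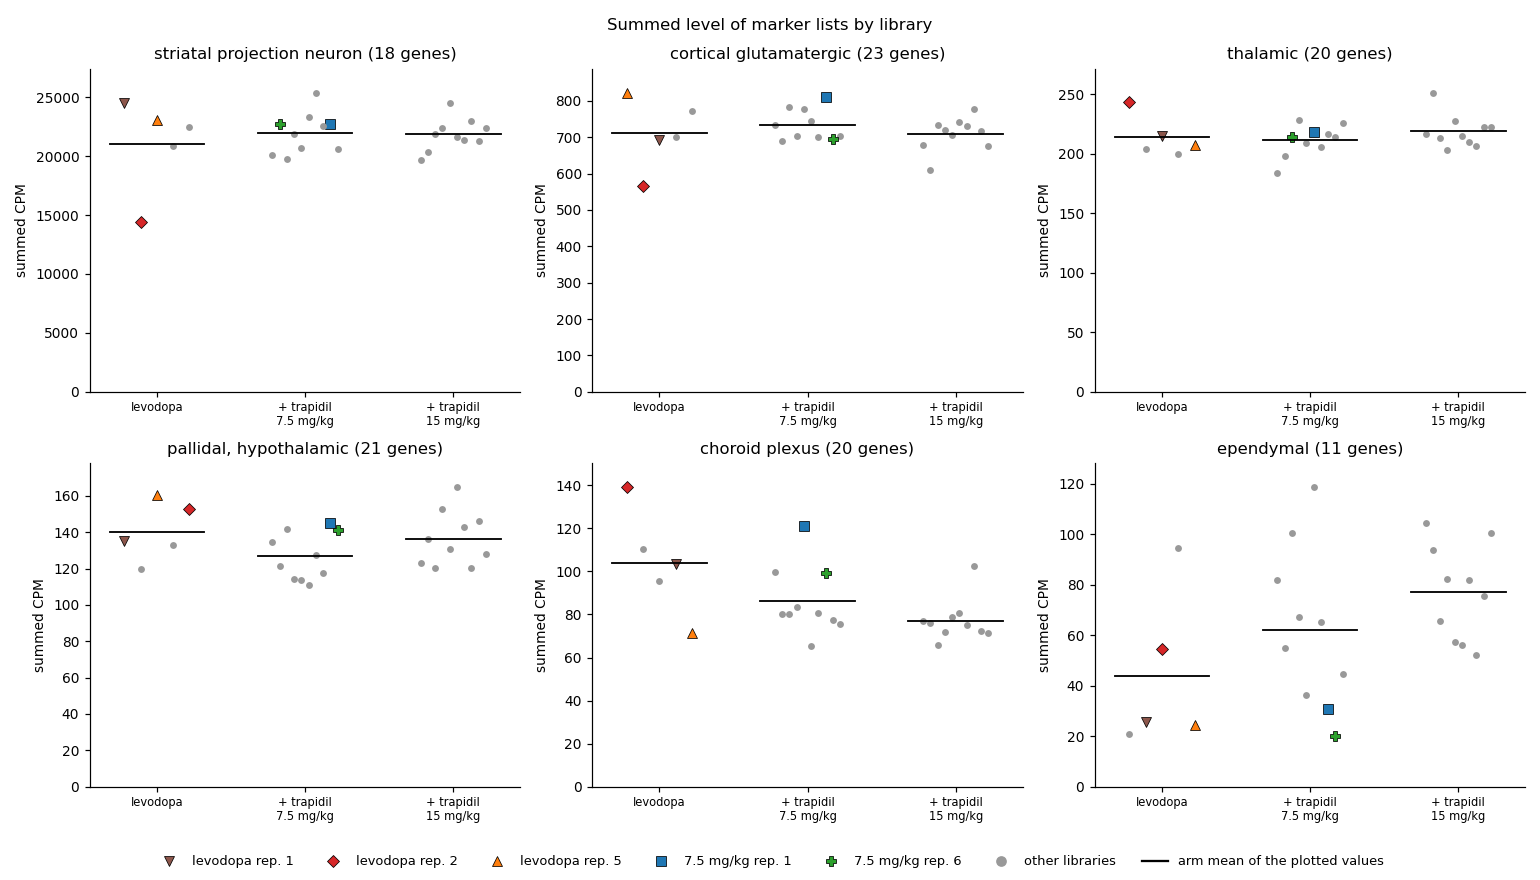
Summed CPM of 6 marker lists (members of the set included) in every library, by arm; black lines are arm means. Levodopa replicate 2 has the lowest striatal sum (14420 CPM), the lowest cortical sum (566.5 CPM) and the highest choroid sum (139.0 CPM).

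The cortical glutamatergic list as a whole held no called gene. Of its 16 tested genes, 0 passed at 15 mg/kg over levodopa (median log2 fold change -0.09, 9 negative; all genes 0.00). Its most abundant genes, Lamp5, Lmo3, Mef2c and Kcnv1, are also expressed in striatum, at 218 ± 22.2, 160 ± 13.7, 140 ± 18.7 and 69.1 ± 6.90 CPM at 15 mg/kg and at 195 ± 32.9, 150 ± 17.9, 147 ± 21.6 and 59.5 ± 18.1 CPM with levodopa. Tbr1, a transcription factor of cortical projection neurons picked after its values were seen, was at 1.17 CPM in levodopa replicate 5, at 2.47 and 0.462 CPM in replicates 1 and 6 of the 7.5 mg/kg arm, and at 0.678 CPM in levodopa replicate 2.

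In the thalamic list of 18 tested genes, 1 passed lower at 15 mg/kg over levodopa, Slc17a6. Another passed higher, the polarity scaffold gene Patj (0.304% of all tested genes passed higher). Patj was at 50.0 ± 5.12 CPM at 15 mg/kg and 40.2 ± 1.88 CPM with levodopa (log2 fold change 0.31 ± 0.08, edgeR adjusted p = 0.0471). Without levodopa replicate 2 its log2 fold change was 0.30 (edgeR adjusted p = 0.165). The median of the list was -0.11 with 11 negative. Of the 15 tested thalamic genes that are not members, 8 had their highest level in levodopa replicate 2 (53.3%, against 19.7% of all tested genes), and 2 had their lowest there (13.3%, against 19.3%), Prkcd at 34.2 CPM and Synpo2 at 14.0 CPM. Among the 8 were Plekhg1, at 21.8 CPM, and, chosen after its values were seen, Rgs16, at 12.5 CPM against at most 5.98 CPM in any other library. The most abundant thalamic gene, Prkcd, was highest in 15 mg/kg replicate 3 at 83.5 CPM, and with it the summed thalamic level (251.5 CPM, against 243.9 CPM in levodopa replicate 2).

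A list of 9 genes held vesicular transporters of glutamate, GABA, amines and zinc and the enzymes that make GABA. Slc17a6 was the 1 of 9 to pass at 15 mg/kg over levodopa, where 1.31% of all tested genes did. That call ended without levodopa replicate 2 (edgeR adjusted p = 0.361). Slc17a8, or VGLUT3, the vesicular glutamate transporter that striatal cholinergic interneurons use, was at 17.3 ± 1.13 CPM at 15 mg/kg and 14.6 ± 3.14 CPM with levodopa (SD, n = 10 and n = 5). Gad1, Gad2 and Slc32a1, which make and load GABA, had log2 fold changes of -0.01 ± 0.11, 0.23 ± 0.09 and 0.01 ± 0.11, none called. Glrb, the glycine receptor beta subunit, was at 121 ± 12.1 CPM at 15 mg/kg and 125 ± 14.3 CPM with levodopa, and Glra2 at 4.25 ± 0.582 and 4.38 ± 0.765 CPM, so of 3 tested glycine receptor genes 0 passed.

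In the list of cerebellins and their partners, Cbln1 included, 0 of 8 tested genes passed at 15 mg/kg over levodopa. Nrxn2 and Nrxn3, which encode neurexins, had log2 fold changes of -0.10 ± 0.07 and 0.15 ± 0.12, and the delta receptor gene Grid1 0.04 ± 0.06. In the Tmem132 family 1 of 5 passed at 15 mg/kg over levodopa and its sign was opposite to that of Tmem132c. Tmem132e averaged 45.5 ± 8.31 CPM at 15 mg/kg and 29.4 ± 4.59 CPM with levodopa (0.63 ± 0.13, edgeR adjusted p = 0.0217). Its log2 fold change was 0.67 without levodopa replicate 2 (edgeR adjusted p = 0.0585).

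The retinoid list, in which Cyp26b1 clears and Rdh10 begins the making of retinoic acid, had 3 of 16 tested genes called, where 1.31% of all tested genes were, and 1 of the 3 was Ttr, whose call rested on 1 library. Rdh10 was higher, at 26.1 ± 2.87 CPM at 15 mg/kg and 18.4 ± 3.59 CPM with levodopa (0.50 ± 0.11; edgeR adjusted p = 0.0217). Rara, a retinoic acid receptor, was lower, at 9.30 ± 0.982 CPM at 15 mg/kg and 11.9 ± 1.21 CPM with levodopa (-0.35 ± 0.09; adjusted p = 0.0457). Without levodopa replicate 2 Rdh10 was at 0.42 (adjusted p = 0.105) and Rara at -0.31 (0.172), no longer called. Rbp4, the retinol carrier that transthyretin binds, was at 83.5 ± 10.1 CPM at 15 mg/kg and 71.8 ± 24.0 CPM with levodopa, a difference that did not pass.

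In the list of Tcf7l2 and its Wnt partners, 0 of 8 tested genes passed at 15 mg/kg over levodopa, where 1.31% of all tested genes did. The median log2 fold change, Tcf7l2 included, was -0.35, and -0.06 without levodopa replicate 2. Lef1, a close relative of Tcf7l2, shared the peak in levodopa replicate 2, at 17.3 CPM. Ctnnb1 and Axin2 were at 217 ± 7.92 and 28.3 ± 2.56 CPM at 15 mg/kg and at 212 ± 22.1 and 28.9 ± 3.32 CPM with levodopa.

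Ependymal genes, of the cells that line the ventricle, were low in several of the same libraries. Their summed level over 11 genes was 54.64 and 24.48 CPM in levodopa replicates 2 and 5, and 30.61 and 20.16 CPM in replicates 1 and 6 at 7.5 mg/kg. It was also low in levodopa replicates 1 and 3 (25.66 and 20.7 CPM), and its median over all libraries was 65.18 CPM. Of 10 tested ependymal genes 0 passed at 15 mg/kg over levodopa (median log2 fold change 1.16, 9 positive). Ccdc153, of motile cilia, was at 8.90 ± 2.76 CPM at 15 mg/kg and 3.19 ± 3.63 CPM with levodopa (1.47 ± 0.57; edgeR adjusted p = 0.15). The part of the ependymal level in the values of the members was not tested.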

How the data were processed

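Polyadenylated RNA of 25 striata was sequenced, and the authors deposited raw read counts per gene (28909 gene names, of which 9462 were at 0 in every library). The submitters' processing notes name FastQC, STAR, HTSeq and the Rnor_6.0 build; tool versions, annotation release and strand setting are not given in the sources used here, so reads of overlapping or antisense genes cannot be told apart. Gene names were used as deposited.

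Genes were kept by filterByExpr with arm as group (14142), scaled by TMM and tested with edgeR 4.0.16 (quasi-likelihood test, two-sided, arm as 1 factor over all 25 libraries, Benjamini-Hochberg adjustment over all genes tested, threshold 0.05; common biological coefficient of variation 0.139). Every adjusted p is from this test unless another tool is named. CPM are deposited counts over library total times TMM factor. Log2 CPM used a pseudocount of 2 for correlations.

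The members and marker lists were chosen with earlier results of these data known. Named genes were the members, the 3 genes most like each by r, every called gene of a list (up to 4) and the 4 most abundant tested genes of each list, of which the text gives those that bear on a member; others are marked as chosen after their values were seen. Lists are described by counts and medians, without a test. Alternatives were RLE scaling, no filter, DESeq2 1.42.0, limma-voom (limma 3.58.1) with quality weights, the compared arms alone, a replicate block, CPM on unscaled totals, each library left out, and levodopa replicate 2 with 7.5 mg/kg replicate 1 left out together; omission of levodopa replicates 2 and 5 with the 7.5 mg/kg replicates 1 and 6, and of levodopa replicate 2 with 7.5 mg/kg replicate 6, was added after seeing the data. No pair of libraries agreed within sampling noise (lowest chi-square per degree of freedom 4.83 within and 3.84 between arms, over genes with at least 20 reads). No batch was given. The statistics were tested on simulated data.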

Additional observations from a re-analysis of the deposited data

Results flagged for a closer look

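In each arm the highest and lowest library of each member was set against its neighbours by Dixon's gap rule, and 8 of 30 such groups held a library far from the others, where chance flags about 1 in 20 groups. Several members were chosen for varying between libraries, so the number of such groups is a description. Levodopa replicate 2 lay far above the other 4 levodopa libraries for Slc17a6 (11.0 CPM), Cyp26b1 (13.0 CPM), Tcf7l2 (19.9 CPM) and Ttr (23.4 CPM). Levodopa replicate 5 did so for Slc17a7 (36.3 CPM) and Neurod6 (2.18 CPM). In the 7.5 mg/kg arm replicate 1 lay far from the other 9 for Slc17a6 (1.74 CPM) and Tmem132c (6.05 CPM). No library of the 15 mg/kg arm was marked out in this way for any member.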

How the results depend on the processing

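Genes called at 15 mg/kg over levodopa numbered 185, against 655 with DESeq2, 715 with limma-voom, 448 with the 2 arms alone, 76 without levodopa replicate 2 and 7.5 mg/kg replicate 1, and 29 without levodopa replicate 2 and 7.5 mg/kg replicate 6; leaving out single libraries gave 9 to 894. At 7.5 mg/kg over levodopa 4 were called, against 7 without a filter, 53 with DESeq2, 102 with limma-voom, 1 with the 2 arms alone, 27 and 7 without those pairs of libraries, 76 without the 4 libraries, and 1 to 70 with single libraries left out. At 15 over 7.5 mg/kg the 4 calls became 13 with limma-voom, 9 without levodopa replicate 2 and 7.5 mg/kg replicate 1, 9 without the 4 libraries, and 4 to 8. With the replicate number as a block 0 genes were called against levodopa at either dose, and Slc17a6 (-2.61; edgeR adjusted p = 0.213) and Ttr (-5.03; 0.179) lost their calls. Whether the numbers pair animals was not settled. Of 20 same-numbered pairs of libraries 8 had correlations above 0.1, and the 20 ran from -0.415 to 0.206. Pairs with different numbers were not set beside them.

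Signs turned at 15 over 7.5 mg/kg with limma-voom for Slc17a6 (0.76), Slc17a7 (0.20), Cbln1 (0.097), Glra1 (0.47), Cyp26b1 (0.29) and Tmem132c (0.0203), and without the 4 libraries for Slc17a7 (0.46) and Cyp26b1 (0.48). At 7.5 mg/kg over levodopa, leaving out single libraries gave -1.0 to 0.41 for Cbln1, -0.46 to 0.17 for Glra1 and -3.25 to 1.40 for Ttr, each turned without levodopa replicate 2, and -1.02 to 1.06 for Slc17a7, turned without levodopa replicate 5. At 15 mg/kg over levodopa no tested member turned under any alternative run. Calls appeared there for Slc30a3, Cbln1, Cyp26b1 and Tmem132c without levodopa replicate 4 or without 7.5 mg/kg replicate 1. With the 2 arms alone they appeared for Slc17a7, Cbln1, Cyp26b1 and Tmem132c, with DESeq2 for Tmem132c, and with limma-voom for Tmem132c and Cyp26b1. At 7.5 mg/kg over levodopa they appeared for Slc30a3 without 7.5 mg/kg replicate 1 and for Cyp26b1 with limma-voom. The cause was not tested. All 30 arm means moved by less than 1 SD on unscaled totals. Depth limits Slc17a6, Cbln1, Glra1, Neurod6, Slc30a3 and Ttr, whose libraries mostly held few reads.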

Other observations

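Avp and Oxt, the neuropeptide genes of hypothalamic magnocellular neurons, were looked at after their values were seen and had a library pattern of their own. Avp was at 4.69 CPM in levodopa replicate 2 and 4.74 CPM in 7.5 mg/kg replicate 6, where Ttr was also highest and second highest, at 0 CPM in 7.5 mg/kg replicate 1 and at no more than 0.443 CPM at 15 mg/kg. Oxt was at 2.16 and 1.68 CPM in the same pair, and at 1.26 CPM in 7.5 mg/kg replicate 8, the library with the third highest Ttr (1.69 CPM). It was also at 0.985 CPM in 15 mg/kg replicate 8, where Ttr had 0 reads. Neither gene passed the low-count filter. In the pallidal and hypothalamic list they come from, 0 of 13 tested genes passed at 15 mg/kg over levodopa. Of its 12 tested genes that are not members, 3 peaked in levodopa replicate 2 (25.0%, against 19.7% of all tested genes). They were Lhx8 (15.7 CPM), Nkx2-1 (8.08 CPM) and Pomc (4.81 CPM). Hmx3 of that list had 2 reads in levodopa replicate 2 and 0 in every other library. Sim1, Otp and Pmch were at 0 CPM in levodopa replicate 2. They were at no more than 0.106 CPM in any library, too few reads to set 1 library apart. Shox2, a transcription factor gene of thalamic neurons in mouse, had 19 reads in levodopa replicate 2 (1.17 CPM), and at most 0.352 CPM in the 7.5 mg/kg arm and 0.147 CPM in the 15 mg/kg arm.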
